A study of Brassica rapa with 6 samples.

Results

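Aux/IAA proteins and auxin response factors (ARFs) are the protein families that turn a change in the hormone auxin into a change in transcription. Of the 49200 loci in the deposited expression table of baby Chinese cabbage, 89 carried a description that named either family. They comprised 50 loci described as an auxin-responsive protein IAA and 39 described as an auxin response factor, and the families were kept apart throughout. They were picked by the text of that description.

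In the model worked out in *Arabidopsis thaliana*, Aux/IAA proteins bind ARFs at promoters and recruit TOPLESS co-repressors, which keeps the target genes off. Auxin joins an Aux/IAA protein to a TIR1/AFB F-box receptor, the Aux/IAA protein is degraded and the ARF is released. ARFs bind auxin response elements directly. ARF5 to ARF8 and ARF19 are classed as activators, ARF1 to ARF4, ARF9, ARF11 and ARF18 as repressors, and ARF10, ARF16 and ARF17 form a class controlled by the microRNA miR160. Most Aux/IAA genes are themselves induced by auxin, so the family is both a brake on the response and one of its outputs. Functions given below are those of the *Arabidopsis* genes of the same number unless another species is named.

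RNA had been sequenced in 3 libraries of petiole, the stalk under the leaf blade, and 3 libraries of leaf, all from an inbred line of *Brassica rapa* that was untreated and sampled at maturity. The plants carried no transgene or other allele named in the labels. The design holds the single comparison of petiole with leaf. Libraries are numbered 1 to 3 within each tissue. The labels do not tie these numbers to individual plants, so each p-value reflects the scatter among the libraries at hand, part or all of which may be technical.

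Totals of the deposited estimated counts lay between 120805715 and 132861243 units in the petiole libraries and between 111518411 and 121161682 units in the leaf libraries, and 1 sequenced fragment was worth 3.69 to 3.78 units. Levels are given as rescaled FPKM, the deposited FPKM (fragments per transcript length and sequencing depth) multiplied by 1 factor per library so that ratios between libraries equal those of TMM-scaled counts. Being per length, they can be compared between loci. Differences are log2 fold changes of petiole over leaf from edgeR's quasi-likelihood test on the counts, with the standard error (SE) and a p-value adjusted over all 31473 loci tested by the Benjamini-Hochberg method. A locus passed at an adjusted p under 0.05. Across loci, r was 0.958 to 0.962 between libraries of 1 tissue and 0.772 to 0.779 between libraries of different tissues.

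Both families were well represented in both tissues. Of the 50 Aux/IAA loci, 6 were at 0 in every library, 6 more were too low to test and 38 were tested. Among those 38, 16 passed with petiole higher, 12 passed with leaf higher and 10 did not pass. Over all loci tested the shares were 31.5% in the direction of petiole and 31.1% in that of leaf. Of the 39 ARF loci, 11 were at 0 in every library and 28 were tested, of which 14 were higher in petiole, 6 were higher in leaf and 8 did not pass. The median log2 fold change was 0.28 over the Aux/IAA loci and 0.26 over the ARF loci, beside 0.01 over all loci tested. The spread was wider among the Aux/IAA loci, where 13 were called at 2-fold or more in the direction of petiole and 7 in that of leaf. Among the ARF loci the corresponding numbers were 5 and 1, beside 17.2% and 17.3% of all loci.

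Libraries of the tissues did not overlap, with petiole above, at 18 Aux/IAA and 16 ARF loci. With leaf above they did not overlap at 13 Aux/IAA and 7 ARF loci. Over all loci tested the shares were 35.9% and 35.4%, or 71.3% in either direction. The direction of small differences depended on scaling. On the deposited FPKM without rescaling, tested with limma on log2(FPKM + 1), the median of all loci stood at 0.47. There 18479 of all loci were higher in petiole and 5078 in leaf. The Aux/IAA loci were then 23 higher in petiole and 7 in leaf, and the ARF loci 22 and 2. Where the shift of all loci is said to be removed, the 0.47 was subtracted from petiole at every locus. On log2(FPKM + 0.1) the median of all loci was 0.70. Adding 1 shrinks the shift at low loci, so the 0.47 is too little at high loci and too much at low ones. Loci whose direction turned on the deposited FPKM are marked as such where they are described. Where no scale is named, passing refers to the counts, and calls on the deposited FPKM could differ.

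The tissues also differed in the markers of several cell types. Of 24 chlorophyll a-b binding protein loci tested, which mark mesophyll, 23 were higher in leaf, with a summed level of 367.7 to 401.8 CPM (counts scaled to the TMM-adjusted library total) in petiole and 4039 to 4453 CPM in leaf. All 11 xylem loci tested were higher in petiole, at 130.3 to 165.8 CPM in petiole and 46.0 to 52.3 CPM in leaf. Of 20 loci for cyclin B and B-type cyclin-dependent kinases, 16 were higher in petiole, at 110.3 to 125.8 CPM in petiole and 45.5 to 55.2 CPM in leaf. Of 5 phloem loci, 2 were higher in petiole and 3 in leaf, at 146.3 to 150.5 CPM in petiole and 219.3 to 239.7 CPM in leaf. The part of these differences in the values below was not tested, and in such whole-tissue samples fewer cells of a type and less RNA per cell cannot be told apart.

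**Figure D1:**
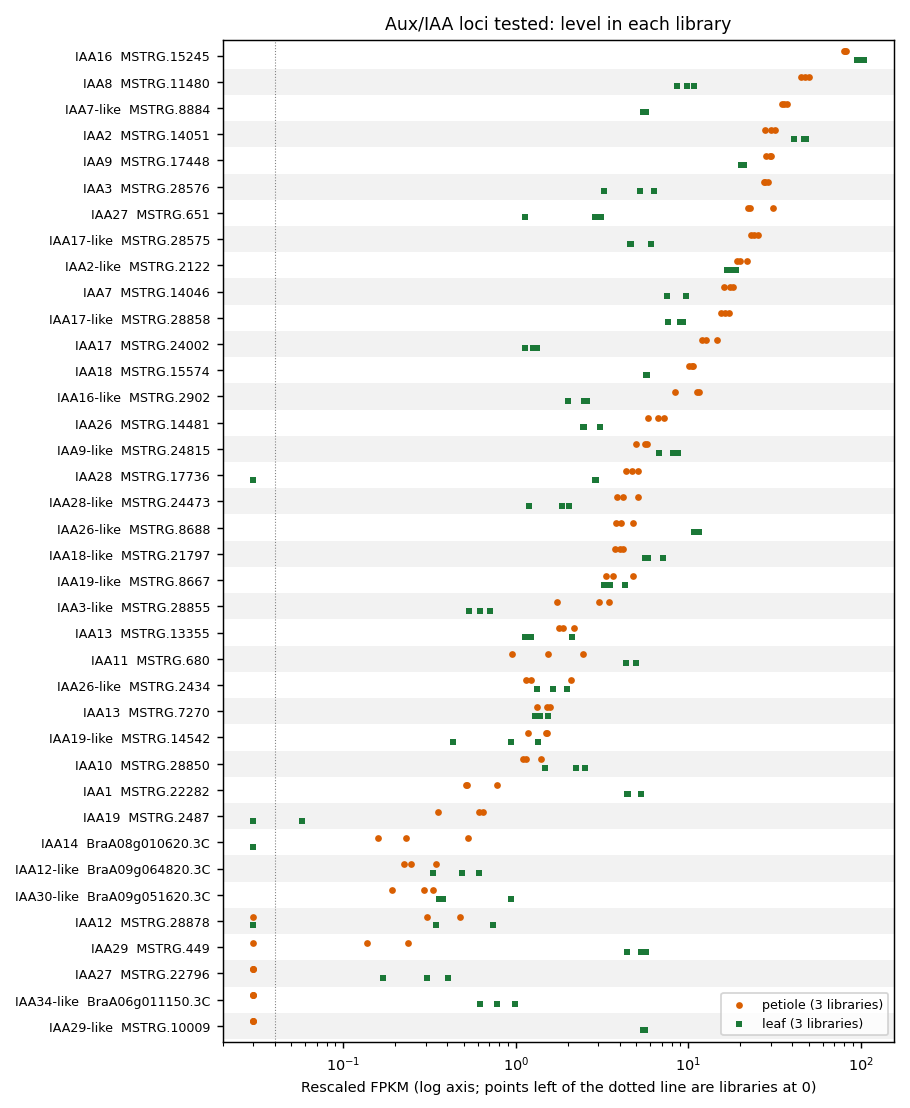
Rescaled FPKM on a log axis for each of the 38 Aux/IAA loci tested, in order of their mean in petiole, with a circle per petiole library and a square per leaf library. IAA16 MSTRG.15245 had the highest mean in both tissues, while IAA29-like MSTRG.10009 at the bottom was at 0 in all 3 petiole libraries and at 5.46 to 5.65 in leaf.

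IAA16 (MSTRG.15245, BraA05g040420.3C, chromosome A05, 27410149 to 27412258) was the most abundant Aux/IAA transcript of both tissues. It stood at 80.9, 79.5 and 81.8 rescaled FPKM in the petiole libraries and at 94.6, 96.7 and 104 in the leaf libraries. Every leaf library was above every petiole library, but the difference was small (log2 fold change -0.29, SE 0.045, adjusted p = 0.00024). It passed in the opposite direction on the deposited FPKM (0.45, adjusted p = 3.3e-05 in limma). With 0.47, the shift of all loci, subtracted there, it did not pass (-0.02, adjusted p = 0.70), but that takes off too little at a locus this abundant. No other called member passed in the opposite direction on the deposited FPKM. IAA16 made up 18.5% ± 0.454 of the summed Aux/IAA level in petiole and 32.6% ± 1.40 in leaf (SD, n = 3 each), a share that no library scaling affects.

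Behind IAA16 the order of the family differed between the tissues. In petiole IAA8 came next, then an IAA7-like locus, and neither overlapped its neighbours in the order. IAA2, IAA9, IAA3, IAA27 and an IAA17-like locus followed, each overlapping the next. In leaf the order went on with IAA2, IAA9, an IAA2-like and an IAA26-like locus, each apart from the next. The loci in places 6 to 8 (IAA8, IAA17-like MSTRG.28858 and IAA7 MSTRG.14046) each overlapped the next. The 4 highest loci held 44.5% of the summed level in petiole and 60.3% in leaf.

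The IAA7, IAA14, IAA16 and IAA17 group includes AXR2 (IAA7), SOLITARY-ROOT (IAA14) and AXR3 (IAA17), genes found through dominant mutants that resist auxin. All 8 loci of the group were tested, 7 were higher in petiole and IAA16 alone was higher in leaf on the count scale, with a median log2 fold change of 2.19. The IAA7-like locus (MSTRG.8884, BraA03g040670.3C) had 35.1, 35.8 and 37.4 rescaled FPKM in petiole and 5.68, 5.53 and 5.44 in leaf. It was thus 6.49-fold higher in petiole with no overlap (log2 fold change 2.70, SE 0.068, adjusted p = 2.1e-10).

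IAA17 (MSTRG.24002, BraA08g034980.3C) was at 12.7, 14.7 and 12.02 rescaled FPKM in petiole and at 1.12, 1.33 and 1.26 in leaf. That was a 10.6-fold difference (log2 fold change 3.4, SE 0.16, adjusted p = 1.8e-08), and the lowest petiole library was far above the highest leaf library. The IAA17-like locus MSTRG.28575 had 25.4, 23.98 and 23.2 in petiole and 4.67, 6.11 and 4.57 in leaf (log2 fold change 2.24, SE 0.13, adjusted p = 1.05e-07). A second IAA17-like locus, MSTRG.28858, moved less, with 17.1, 16.3 and 15.6 in petiole and 7.64, 9.33 and 8.91 in leaf (log2 fold change 0.92, SE 0.095, adjusted p = 1.1e-05).

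IAA7 MSTRG.14046 had 18.1, 17.5 and 16 rescaled FPKM in petiole and 7.56, 9.67 and 7.51 in leaf (log2 fold change 1.06). The IAA16-like locus MSTRG.2902 had 11.3, 11.6 and 8.34 in petiole and 2.48, 2.00 and 2.58 in leaf (log2 fold change 2.14). Petiole was above leaf without overlap at both. IAA14 (BraA08g010620.3C), whose gene is known for lateral root initiation, was near the limit of detection. It had 20, 27 and 57 count units in petiole and none in leaf, at least 2.16-fold higher in petiole against a floor of 3 fragments per leaf library. Without petiole replicate 3, its highest library, the bound was 1.40-fold. With the bound of all libraries in place of its fitted value, the median of the group was 1.63.

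IAA8, IAA9 and IAA27 form a group of larger Aux/IAA proteins, of which IAA9 is known from tomato for leaf shape and fruit set. IAA8 (MSTRG.11480, BraA04g016620.3C) stood at 47.7, 44.97 and 50.1 rescaled FPKM in petiole and at 8.55, 9.79 and 10.8 in leaf. It was 4.89-fold higher in petiole, with no overlap (log2 fold change 2.29, SE 0.088, adjusted p = 4.6e-09). IAA27 MSTRG.651 had 31.1, 22.8 and 22.2 in petiole and 1.13, 2.87 and 3.12 in leaf. The libraries of both tissues spread more than those of IAA8, and all petiole libraries were above all leaf libraries (log2 fold change 3.41, SE 0.45, adjusted p = 0.0024).

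IAA9 MSTRG.17448 had 28.1, 30 and 29.7 rescaled FPKM in petiole and 21.1, 20.1 and 20.96 in leaf (log2 fold change 0.50, SE 0.052, adjusted p = 1.1e-05). The IAA9-like locus MSTRG.24815 had 4.94, 5.60 and 5.79 in petiole and 8.71, 8.21 and 6.77 in leaf, which was lower in petiole on the count scale (log2 fold change -0.54, SE 0.12, adjusted p = 0.0031) but turned to 0.18 on the deposited FPKM without passing (adjusted p = 0.14). A second IAA27 locus, MSTRG.22796, had no counts in petiole and 12, 30 and 22 units in leaf, at least 2.41-fold lower in petiole. Summed, the group stood at 107.6 ± 4.24 rescaled FPKM in petiole and 41.0 ± 1.21 in leaf (SD, n = 3 each). This was 24.6% of the family sum in petiole and 13.6% in leaf.

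The IAA1 to IAA4 group, small Aux/IAA proteins whose genes are quickly induced by auxin in seedlings, split between the tissues. IAA3 (MSTRG.28576, BraA09g065000.3C), the gene of the SHORT HYPOCOTYL 2 mutant, had 27.5, 29.02 and 27.7 rescaled FPKM in petiole and 6.31, 5.25 and 3.25 in leaf. It was higher in every petiole library (log2 fold change 2.51, SE 0.24, adjusted p = 0.00021). The locus overlaps an uncharacterized one, MSTRG.28577, on the other strand, which did not pass (log2 fold change -0.10, adjusted p = 0.14). No source says that strand was used in counting, so reads of the overlap cannot be assigned to either.

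An IAA3-like locus, MSTRG.28855, was higher in petiole at a low level, with 3.05, 3.47 and 1.73 rescaled FPKM in petiole and 0.621, 0.713 and 0.534 in leaf (log2 fold change 2.12). IAA1 MSTRG.22282 went the other way, with 0.774, 0.522 and 0.515 in petiole and 4.44, 5.33 and 4.48 in leaf (log2 fold change -2.96, SE 0.25, adjusted p = 2.1e-06). Its level was 7.83-fold higher in leaf, with no overlap. IAA2 MSTRG.14051 had 30.1, 31.9 and 28 in petiole and 40.9, 46.6 and 48.02 in leaf, lower in petiole on the count scale (log2 fold change -0.59, SE 0.082, adjusted p = 0.00011) but turned to 0.15 on the deposited FPKM without passing (adjusted p = 0.12). The IAA2-like locus MSTRG.2122, with 21.8, 19.1 and 19.9 in petiole and 18.9, 17.7 and 16.7 in leaf, did not pass on the count scale (log2 fold change 0.19, SE 0.085, adjusted p = 0.079), while on the deposited FPKM it was higher in petiole (0.88, adjusted p = 7.61e-06).

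In the IAA18, IAA26 and IAA28 group 3 loci were higher in petiole, 2 were higher in leaf and 2 did not pass. IAA26 MSTRG.14481, known for the capture of its protein by a tobacco mosaic virus replicase, had 5.81, 6.66 and 7.26 rescaled FPKM in petiole and 2.48, 2.44 and 3.08 in leaf (log2 fold change 1.30, SE 0.14, adjusted p = 1.55e-05). The IAA26-like locus MSTRG.8688 was lower in petiole, with 3.81, 4.07 and 4.76 in petiole and 10.8, 11 and 11.6 in leaf (log2 fold change -1.40, SE 0.10, adjusted p = 6.5e-07). Neither pair of tissue values overlapped. The second IAA26-like locus, MSTRG.2434, overlapped between tissues and did not pass (log2 fold change -0.15, adjusted p = 0.71). Its log2 fold change turned to 0.34 on the deposited FPKM without passing (adjusted p = 0.11 in limma).

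IAA18 MSTRG.15574 had 10.1, 10.5 and 10.7 rescaled FPKM in petiole and 5.79, 5.75 and 5.69 in leaf (log2 fold change 0.86, SE 0.083, adjusted p = 6.4e-06). The IAA18-like locus MSTRG.21797 had 4.18, 3.77 and 4.03 in petiole and 7.09, 5.81 and 5.57 in leaf, lower in petiole on the count scale (log2 fold change -0.63, SE 0.11, adjusted p = 0.00067) but turned to 0.10 on the deposited FPKM without passing (adjusted p = 0.38). IAA28 is a regulator of lateral root founder cells. The IAA28-like locus MSTRG.24473, with 4.16, 3.85 and 5.14 in petiole and 1.20, 2.03 and 1.86 in leaf, was higher in petiole (log2 fold change 1.36, SE 0.27, adjusted p = 0.0014).

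At IAA28 MSTRG.17736 the call depended on 1 leaf library and on the test. The locus had 502, 508 and 407 count units in petiole and 206, 219 and 0 in leaf, so that leaf replicate 3 stood apart from the others of its tissue. With all libraries the difference did not pass (log2 fold change 1.29, SE 1.3, adjusted p = 0.44), and without leaf replicate 3 it did (0.71, adjusted p = 0.021). With all libraries it also passed in limma on log2(FPKM + 1), at 1.69 (adjusted p = 0.0057) and at 1.22 with the shift of all loci removed (adjusted p = 0.028), but not on log2(FPKM + 0.1), at 2.91 (adjusted p = 0.080). This locus lies outside the naming rule and was picked out after its values had been seen.

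IAA10 to IAA13, the group of the embryonic root regulator BODENLOS (IAA12), had 2 loci that were higher in leaf and 4 that did not pass among 6 tested. IAA11 MSTRG.680 had 0.955, 1.54 and 2.44 rescaled FPKM in petiole and 4.94, 4.36 and 4.38 in leaf (log2 fold change -1.47, SE 0.31, adjusted p = 0.0018), with the highest petiole library still below every leaf library. IAA10 MSTRG.28850 also passed in the direction of leaf (log2 fold change -0.76, adjusted p = 0.039), but did not without petiole replicate 1, petiole replicate 3, leaf replicate 2 or leaf replicate 3 (adjusted p = 0.091 to 0.14). The pairs of IAA12 and IAA13 loci did not pass. At IAA12 MSTRG.28878 the log2 fold change turned from -0.46 to 0.06 on the deposited FPKM without passing (adjusted p = 0.81 in limma).

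In the IAA5, IAA6 and IAA19 group, of which IAA19 acts in hypocotyl bending, levels were low. IAA19 MSTRG.2487 had 73, 72 and 38 count units in petiole and 0, 0 and 5 in leaf and was higher in petiole (adjusted p = 0.013). In fragments this was 48 in petiole and 1 in leaf, a 35.5-fold ratio with a 95% counting interval of 6.07 to 1430 (exact Clopper-Pearson, counting error only). The only leaf counts came from leaf replicate 3, and without it the locus was at least 3.70-fold higher in petiole against the floor. The IAA19-like loci MSTRG.8667 and MSTRG.14542 did not pass, at 3.93 ± 0.745 and 1.39 ± 0.19 rescaled FPKM in petiole and 3.70 ± 0.542 and 0.905 ± 0.46 in leaf (SD, n = 3 each).

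Both IAA29 loci were at or near 0 in petiole and at about the same level as each other in leaf. IAA29 is known as a direct target of PIF transcription factors in the response to shade. The IAA29-like locus (MSTRG.10009, BraA03g057220.3C, chromosome A03, 30044307 to 30045458) had no counts in any petiole library and 558, 575 and 545 units in leaf, or 5.65, 5.54 and 5.46 rescaled FPKM. It was at least 63.6-fold lower in petiole against a floor of 3 fragments per library. IAA29 MSTRG.449 had 0.238, 0 and 0.137 rescaled FPKM in petiole and 5.33, 4.43 and 5.72 in leaf (log2 fold change -5.32, SE 0.88, adjusted p = 0.0021). Without petiole replicate 1, the highest of its tissue, the log2 fold change was -6.23.

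Aux/IAA proteins of the numbers 20 and 30 to 34 lack part or all of the degron through which auxin destabilizes the family. Of the 10 loci with these numbers 4 were at 0 in every library, and another 4 had a few units in some petiole libraries and none in leaf and were not tested. The IAA34-like locus BraA06g011150.3C had no counts in petiole and 53, 44 and 34 units in leaf, at least 4.97-fold lower in petiole. The IAA30-like locus BraA09g051620.3C, at 0.272 ± 0.0723 rescaled FPKM in petiole and 0.559 ± 0.326 in leaf, did not pass (adjusted p = 0.31). IAA6 and the single IAA15 locus were at 0 in all libraries. An IAA5 locus and the second IAA10 locus had too few counts to be tested.

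*Brassica rapa* descends from a genome triplication, and several *Arabidopsis* numbers are held by more than 1 locus. Of 14 Aux/IAA numbers with several loci tested, 5 had loci called in opposite directions (IAA9, IAA16, IAA18, IAA26 and IAA27). Among 10 such ARF numbers, 1 did (ARF16). As 31.5% of all loci tested were called higher in petiole and 31.1% higher in leaf, unrelated loci would often be called in opposite directions too. No comparison with such loci was made. For IAA9, IAA16, IAA18 and ARF16 the locus called higher in leaf did not keep that direction on the deposited FPKM. The ratio between loci of a number does not depend on how libraries are scaled. IAA26 over IAA26-like MSTRG.8688 was 1.53, 1.64 and 1.52 in petiole and 0.228, 0.222 and 0.266 in leaf, so that the more abundant locus of the pair differed between the tissues.

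The IAA18 over IAA18-like ratio was 2.43, 2.79 and 2.65 in petiole and 0.817, 0.991 and 1.02 in leaf. For IAA9 over IAA9-like it was 5.68, 5.35 and 5.13 in petiole and 2.42, 2.45 and 3.10 in leaf. The IAA16-like over IAA16 ratio was 0.140, 0.145 and 0.102 in petiole and 0.0262, 0.0207 and 0.0248 in leaf. In each of these pairs every petiole library was above every leaf library, and IAA9 and IAA16 remained the more abundant locus of their pair in both tissues.

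**Figure D2:**
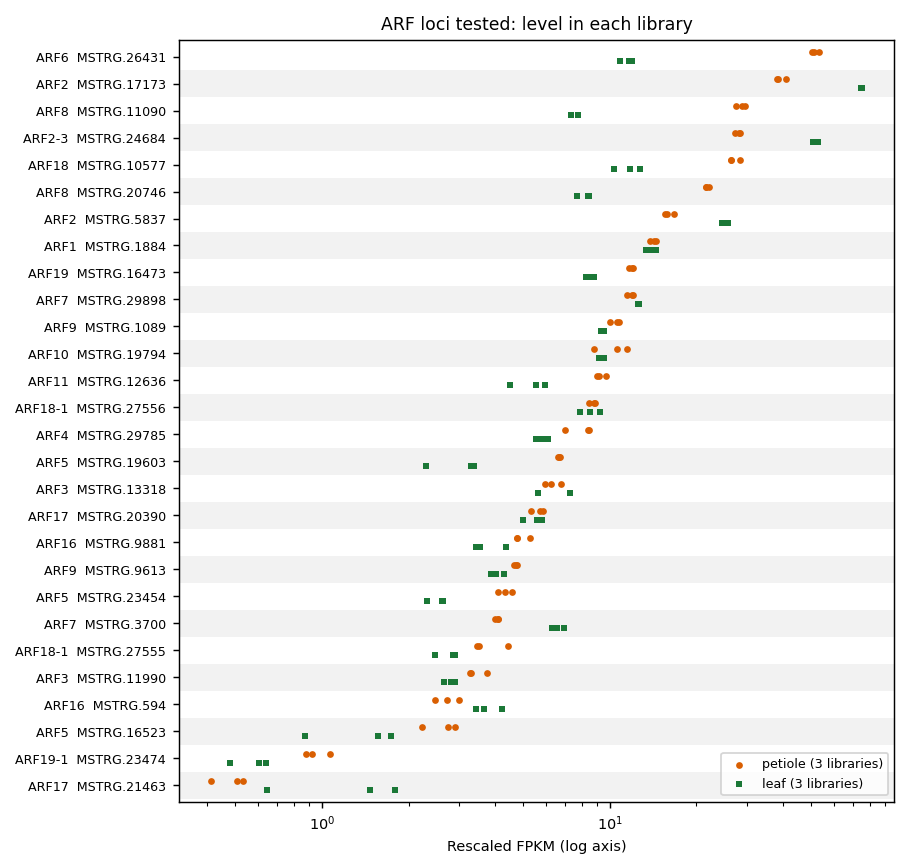
Rescaled FPKM on a log axis for each of the 28 ARF loci tested, in order of their mean in petiole, with a circle per petiole library and a square per leaf library. ARF6 MSTRG.26431 led in petiole at 50.5 to 53.2 and stood at 10.9 to 11.9 in leaf, while ARF2 MSTRG.17173 led in leaf at 74.7 to 75.1.

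Most activator-class ARF loci were higher in petiole. Of the 10 loci, all tested, 8 were higher in petiole, 1 was higher in leaf and 1 did not pass, with a median log2 fold change of 0.84. ARF6 (MSTRG.26431, BraA09g034710.3C, chromosome A09, 27370131 to 27374731) had 51.1, 50.5 and 53.2 rescaled FPKM in petiole and 10.9, 11.7 and 11.9 in leaf. With a 4.49-fold difference (log2 fold change 2.17, SE 0.047, adjusted p = 7.7e-11) it was the most abundant ARF of the petiole and in place 7 in the leaf.

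ARF6 and ARF8 act together in flower maturation and in stem elongation, and both are targets of the microRNA miR167. ARF8 MSTRG.11090 had 28.9, 27.4 and 29.4 rescaled FPKM in petiole and 7.78, 7.34 and 7.34 in leaf (log2 fold change 1.93, SE 0.051, adjusted p = 2.9e-10). The second ARF8 locus, MSTRG.20746, had 21.7, 21.5 and 22.03 in petiole and 8.39, 7.71 and 8.47 in leaf (log2 fold change 1.41, SE 0.053, adjusted p = 3.7e-09). Replicates lay within a few percent of each other in petiole, and the tissues were clearly apart at all 3 loci.

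ARF5, or MONOPTEROS, is needed for vascular strands and for organ initiation. Its 3 loci were all higher in petiole. MSTRG.19603 had 6.62, 6.69 and 6.67 rescaled FPKM in petiole and 2.30, 3.30 and 3.38 in leaf (log2 fold change 1.15, SE 0.14, adjusted p = 3.2e-05). MSTRG.16523 had 2.89, 2.23 and 2.74 in petiole and 1.74, 0.876 and 1.57 in leaf (log2 fold change 0.91, adjusted p = 0.011), and MSTRG.23454 had a log2 fold change of 0.78. Summed, ARF5 stood at 13.6 ± 0.128 in petiole and 6.91 ± 0.614 in leaf (SD, n = 3 each).

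ARF7 and ARF19 act together in lateral root formation and, for ARF7, in tropic bending of the hypocotyl. Both ARF19 loci were higher in petiole, with log2 fold changes of 0.48 for MSTRG.16473 (SE 0.055, adjusted p = 2.2e-05) and 0.73 for MSTRG.23474 (SE 0.20, adjusted p = 0.0088). ARF7 MSTRG.3700 had 4.004, 4.10 and 4.10 rescaled FPKM in petiole and 6.57, 6.93 and 6.32 in leaf, lower in petiole on the count scale (log2 fold change -0.70, SE 0.066, adjusted p = 5.3e-06) but turned to 0.03 on the deposited FPKM without passing (adjusted p = 0.70). MSTRG.29898, at 11.8 ± 0.321 in petiole and 12.6 ± 0.0789 in leaf, did not pass on the count scale (log2 fold change -0.09, adjusted p = 0.12), while on the deposited FPKM it was 0.60 (adjusted p = 1.8e-05).

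The repressor class was led by ARF2, known for limiting organ size and for promoting leaf senescence. ARF2 MSTRG.17173 (BraA06g025480.3C, chromosome A06, 17795321 to 17799362) had 38.4, 38.0 and 40.9 rescaled FPKM in petiole and 74.98, 74.7 and 75.1 in leaf (log2 fold change -0.94, SE 0.040, adjusted p = 1.1e-08). MSTRG.24684, described as ARF2-3, had 27.2, 28.4 and 28.04 in petiole and 52.8, 50.6 and 52.4 in leaf (log2 fold change -0.90, SE 0.040, adjusted p = 1.3e-08). These loci kept leaf higher on the deposited FPKM. The remaining ARF2 locus, MSTRG.5837, had 16.8, 15.8 and 15.5 in petiole and 25.7, 24.6 and 25.6 in leaf, lower in petiole on the count scale (log2 fold change -0.66, SE 0.048, adjusted p = 6.4e-07) but turned to 0.08 on the deposited FPKM without passing (adjusted p = 0.21). In leaf the ARF2 loci took the first 3 places of the family, each without overlap with the next.

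Other repressor-class loci were higher in petiole. ARF18 MSTRG.10577 had 26.3, 26.4 and 28.3 rescaled FPKM in petiole and 11.7, 10.4 and 12.7 in leaf (log2 fold change 1.22, SE 0.078, adjusted p = 2.4e-07). It lies within a longer assembled locus on the same strand, MSTRG.10511, with which reads could have been shared, and which did not pass (log2 fold change -0.78, adjusted p = 0.17). ARF11 MSTRG.12636, with 9.71, 9.14 and 9.00 in petiole and 4.50, 5.52 and 5.93 in leaf, was higher in petiole (log2 fold change 0.80, SE 0.11, adjusted p = 8.65e-05).

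ARF3 and ARF4 differed little on the count scale. They set the lower side of the leaf and are cut by small RNAs of the TAS3 family. ARF4 MSTRG.29785 had 8.49, 8.39 and 7.01 rescaled FPKM in petiole and 5.80, 5.56 and 6.11 in leaf (log2 fold change 0.45, SE 0.088, adjusted p = 0.0012). ARF3 MSTRG.11990 (log2 fold change 0.30, adjusted p = 0.053) and MSTRG.13318 (0.04, adjusted p = 0.80) did not pass on the count scale. On the deposited FPKM the means of ARF4 were 10.3 in petiole and 4.51 in leaf. Those of ARF3 were 4.44 in petiole and 2.16 in leaf at MSTRG.11990, and 8.18 and 4.77 at MSTRG.13318. ARF1 MSTRG.1884, with 14.5, 13.8 and 14.3 in petiole and 13.97, 14.4 and 13.3 in leaf, overlapped between the tissues and did not pass (0.03, adjusted p = 0.68), while on the deposited FPKM it was higher in petiole (0.72, adjusted p = 7.7e-06). ARF9 MSTRG.9613 was close to the threshold (log2 fold change 0.22, adjusted p = 0.040) and was lost when any library but leaf replicate 1 was left out (adjusted p = 0.068 to 0.11).

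The miR160 class summed to 24.1 ± 1.33 rescaled FPKM in petiole and 23.7 ± 0.557 in leaf, and to 31.1 ± 1.71 in petiole and 18.4 ± 0.343 in leaf on the deposited FPKM (SD, n = 3 each), so that its comparison depended on the scaling. ARF10 and ARF16 act in the root cap and in seed germination. ARF16 MSTRG.9881, with 4.77, 4.76 and 5.29 in petiole and 4.36, 3.43 and 3.55 in leaf, was higher in petiole (log2 fold change 0.38, adjusted p = 0.012), though not without petiole replicate 3 (adjusted p = 0.051). ARF16 MSTRG.594, with 2.48, 2.72 and 2.99 in petiole and 3.44, 3.65 and 4.22 in leaf, was lower in petiole on the count scale (log2 fold change -0.47, SE 0.12, adjusted p = 0.0073) but turned to 0.21 on the deposited FPKM without passing (adjusted p = 0.093). The ratio of the first to the second was 1.92, 1.75 and 1.77 in petiole and 1.27, 0.941 and 0.842 in leaf. ARF17 MSTRG.21463 was low, at 0.484 ± 0.063 rescaled FPKM in petiole and 1.30 ± 0.593 in leaf. It was lower in petiole on the count scale (log2 fold change -1.43, SE 0.36, adjusted p = 0.0054). Its deposited FPKM was 0.690, 0.534 and 0.653 in petiole and 1.13, 1.41 and 0.499 in leaf, and there the tissues overlapped. ARF10 MSTRG.19794 and ARF17 MSTRG.20390 did not pass on the count scale. Their means on the deposited FPKM were 13.3 and 7.29 in petiole and 7.28 and 4.22 in leaf, in that order.

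All 9 loci numbered ARF14 and ARF20 to ARF22, a group known in *Arabidopsis* for expression in seeds, were at 0 in all 6 libraries. Of them 6 were numbered ARF22, and 4 of these lay within 100 kb of each other on chromosome A09. The other 2 silent ARF loci were an ARF9 locus on A10 and an ARF9-like locus on A08. A count of 0 allows up to 3 fragments, or 12 count units, in a library, and covers counting error only.

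**Figure D3:**
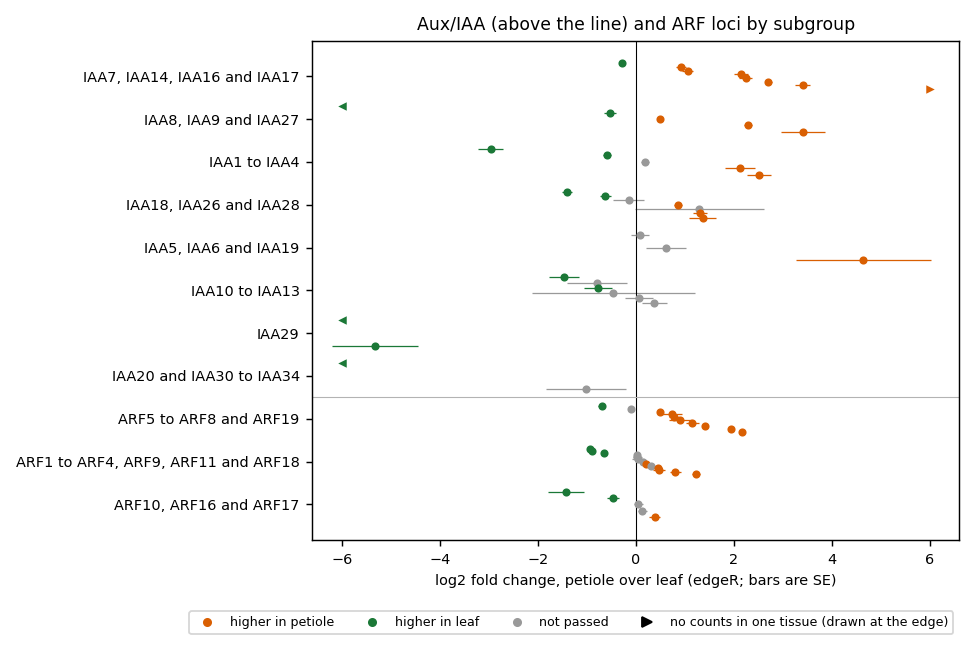
Log2 fold change of petiole over leaf from edgeR on the counts, with a point and a bar of 1 SE per locus tested, for the Aux/IAA subgroups above the line and the ARF subgroups below it. Triangles at the edge are loci with no counts in 1 tissue; all IAA7, IAA14 and IAA17 loci lie to the right of 0, and so do 8 of 10 loci of ARF5 to ARF8 and ARF19.

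The composition of the ARF pool differed between the tissues. Summed over its 39 loci the family stood at 347.2 ± 5.86 rescaled FPKM in petiole and 308.6 ± 3.22 in leaf (SD, n = 3 each), a 1.13-fold difference that was 1.88-fold on the deposited FPKM. The activator class made up 41.5% ± 0.0705 of that sum in petiole and 20.2% ± 0.285 in leaf. The repressor class made up 51.5% ± 0.378 in petiole and 72.1% ± 0.134 in leaf. The activator-to-repressor ratio was 0.812, 0.798 and 0.808 in the petiole libraries and 0.275, 0.283 and 0.282 in the leaf libraries. These shares and ratios are taken within a library and do not depend on library scaling.

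The difference lay mainly in ARF6 and ARF8 on the one side and ARF2 on the other. ARF6 and ARF8 together held 29.3% ± 0.261 of the ARF sum in petiole and 8.80% ± 0.0785 in leaf. The 3 ARF2 loci held 23.9% ± 0.129 in petiole and 49.3% ± 0.347 in leaf. Their ratio, ARF6 plus ARF8 over ARF2, was 1.23, 1.21 and 1.24 in petiole and 0.176, 0.178 and 0.181 in leaf, with replicates close together and the tissues far apart. No p-value is given for these sums.

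**Figure D4:**
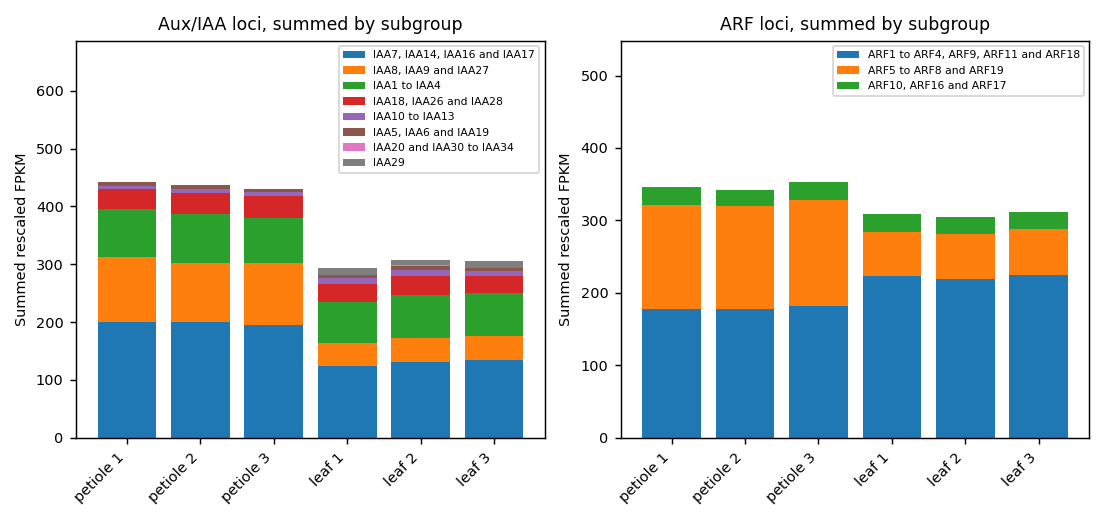
Summed rescaled FPKM per library, stacked by subgroup, for the Aux/IAA loci on the left and the ARF loci on the right, with the 3 petiole libraries before the 3 leaf libraries in each panel. The Aux/IAA sum was 430.3 to 442.8 in petiole and 292.8 to 307.8 in leaf, and the ARF5 to ARF8 and ARF19 block was 141.8 to 147.0 in petiole and 61.4 to 63.5 in leaf.

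The Aux/IAA sum was 436.9 ± 6.27 rescaled FPKM in petiole and 301.9 ± 7.98 in leaf (SD, n = 3 each), a 1.45-fold difference that was 2.41-fold on the deposited FPKM. Without IAA16 MSTRG.15245 the sum was 356.2 ± 6.88 in petiole and 203.5 ± 6.81 in leaf. Against the ARF sum of the same library, the Aux/IAA sum was 1.28, 1.28 and 1.22 in petiole and 0.948, 1.01 and 0.979 in leaf. The IAA7, IAA14, IAA16 and IAA17 group held similar shares, 45.4% ± 0.180 in petiole and 42.9% ± 1.00 in leaf, although it was made up mostly of IAA16 in leaf. The IAA29 loci held 0.0285% in petiole and 3.55% in leaf.

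Some members of different groups are neighbours in the genome, with coordinates as in the deposited table, whose genome build is not given in the sources used here. IAA17-like MSTRG.28575 and IAA3 MSTRG.28576 lie on opposite strands of chromosome A09 with 7.73 kb between them, and both were higher in petiole. IAA17-like MSTRG.28858 and IAA3-like MSTRG.28855 are arranged in the same way on A10 with 10.95 kb between them, and both were again higher in petiole. By contrast, IAA7 MSTRG.14046 and IAA2 MSTRG.14051 lie 55.9 kb apart on A05, with the IAA7 locus higher in petiole and the IAA2 locus higher in leaf on the count scale (the IAA2 direction turned on the deposited FPKM). IAA14 BraA08g010620.3C and IAA1 MSTRG.22282, 53.6 kb apart on A08, were also called in opposite directions. The ARF18-1 loci MSTRG.27555 and MSTRG.27556, 3.30 kb apart on A09, share a description. The first was higher in petiole (log2 fold change 0.47) and the second did not pass (0.03), and reads could have been split between them.

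The rest of the auxin pathway was searched by description and gave 185 loci, of which 130 were tested. Over all lists 63 were higher in petiole, 35 were higher in leaf and 32 did not pass. The lists were chosen with earlier results of these data known, and their counts are given as a description beside the shares of all loci above. Most synthesis loci and, on the count scale, all receptor loci tested were lower in petiole. Most influx carrier loci and most loci of the SAUR family, a large group of auxin-induced growth genes, were higher in petiole.

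**Figure D5:**
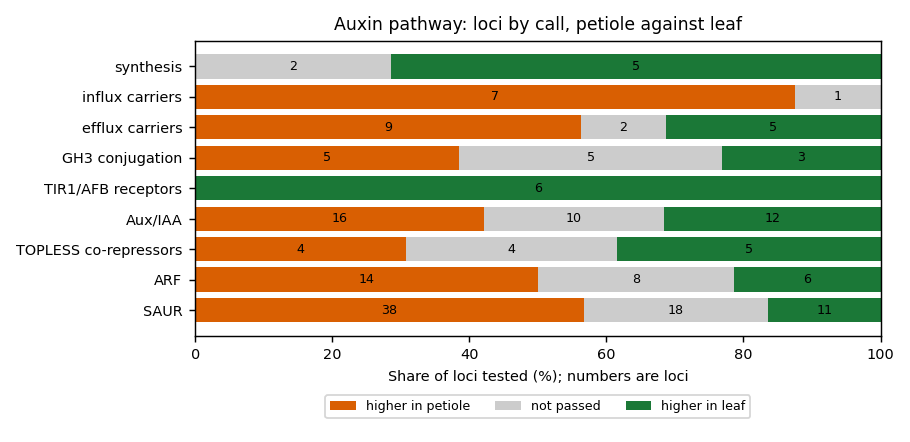
Share in percent of the loci tested that were higher in petiole, not passed or higher in leaf, for the Aux/IAA and ARF families and 7 other lists of the auxin pathway, with the number of loci written in each bar. On the count scale all 6 TIR1/AFB receptor loci were higher in leaf (the direction of 3 turned on the deposited FPKM), and 7 of 8 influx carrier loci were higher in petiole. The bar labelled efflux carriers also holds PIN-LIKES loci.

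Of 7 synthesis loci tested (YUCCA monooxygenases and tryptophan aminotransferases) 5 passed with leaf higher and 2 did not pass. Their summed level was low, at 1.23 to 2.18 CPM in petiole and 11.8 to 12.8 CPM in leaf. Loci described as auxin efflux carriers or as PIN-LIKES proteins, counted as 1 list, were split, with 9 of 16 higher in petiole and 5 higher in leaf. The summed level of that list was higher in leaf on the count scale, at 453.0 to 476.6 CPM in petiole and 692.5 to 707.3 CPM in leaf. PIN7 MSTRG.19478 had 18.3, 16.4 and 17.6 rescaled FPKM in petiole and 2.46, 2.99 and 2.89 in leaf (log2 fold change 2.64, SE 0.095, adjusted p = 2.8e-09). PIN-LIKES 5-like MSTRG.24982 had a log2 fold change of 2.28. The AUX1/LAX influx carriers had a median log2 fold change of 1.12, led by the auxin transporter-like protein 3 loci MSTRG.20397 (2.77) and MSTRG.4725 (2.15).

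All 6 TIR1/AFB receptor loci tested were lower in petiole on the count scale, with a median log2 fold change of -0.86, while on the deposited FPKM 3 of them passed with leaf higher and the other 3 turned direction without passing. AFB2 MSTRG.5456 had 8.66, 8.07 and 8.30 rescaled FPKM in petiole and 23.9, 24.0 and 27.2 in leaf (log2 fold change -1.59, SE 0.065, adjusted p = 7.6e-09). The AFB3-like locus MSTRG.28180 had 13.3, 12.7 and 13.3 in petiole and 32.4, 32.6 and 35.7 in leaf (log2 fold change -1.36, SE 0.054, adjusted p = 6.3e-09). Summed, the receptors stood at 55.4 ± 0.969 in petiole and 115.1 ± 4.94 in leaf, or at 71.5 ± 1.37 in petiole and 89.1 ± 4.09 in leaf on the deposited FPKM (SD, n = 3 each). The transcript ratio of Aux/IAA to receptor was 7.88, 8.06 and 7.74 in petiole and 2.66, 2.68 and 2.54 in leaf, again free of library scaling.

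TOPLESS co-repressors were divided, with 4 of 13 higher in petiole and 5 higher in leaf and a median of -0.08 (9 and 3 on the deposited FPKM). Topless-related protein 3 MSTRG.17785 (log2 fold change -1.81, adjusted p = 4.6e-09) and topless-related protein 2 MSTRG.2422 (-1.20, adjusted p = 5.2e-09) were lower in petiole. GH3 enzymes, which couple auxin to amino acids and so inactivate it, were likewise divided, with 5 of 13 higher in petiole and 3 higher in leaf. In limma on the deposited FPKM these numbers were 6 and 3, and with the shift of all loci removed 3 and 6. Only 4 of the GH3 loci reached a mean FPKM of 1, however, and that removal takes off too much at low loci. GH3.6 MSTRG.4034 had 5.76, 5.84 and 6.81 rescaled FPKM in petiole and 0.395, 0.358 and 0.296 in leaf (log2 fold change 4.11, SE 0.16, adjusted p = 4.6e-09), and GH3.5 MSTRG.9766 was also higher in petiole (1.99, adjusted p = 2.1e-08).

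Of 67 SAUR loci tested, 38 were higher in petiole, 11 were higher in leaf and 18 did not pass, with a median log2 fold change of 2.31 (2.20 with loci at 0 in 1 tissue set at their bound). The SAUR21-like loci MSTRG.6612, with 860, 584 and 535 count units in petiole and 1, 13 and 0 in leaf, and MSTRG.3573, with 380, 532 and 289 in petiole and 0, 15 and 24 in leaf, were the named examples (adjusted p = 0.00020 and 0.0030). Both were near the detection limit in leaf, and no petiole library overlapped a leaf library.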

How the data were processed

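The authors deposited 1 table of loci. Per the file headers, each library has an estimated count column and an FPKM column. Per the labels' protocols, libraries were strand-specific and made after depletion of ribosomal RNA. Bowtie 0.12.2 and the name mm8, a mouse build, appear in the submitters' processing notes without a role. Neither the plant build nor the aligner and counter used on it is given in the sources used here. The deposited counts were whole numbers in which low values piled up at multiples of 3.69 to 3.78 units per fragment, and rounding changed nothing. Within a locus the deposited FPKM was proportional to the count (largest deviation 0.0056 on the log2 scale over 14841 loci). Loci without a gene name took 5.94 to 6.62% of the counts in petiole and 5.19 to 5.43% in leaf and stayed in the tests.

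Petiole was compared with leaf by edgeR 4.0.16 (R 4.3.3; filterByExpr, TMM, robust quasi-likelihood test, tissue alone, two-sided), with Benjamini-Hochberg adjustment over 31473 loci. TMM factors were 1.09 to 1.14 in petiole and 0.885 to 0.925 in leaf, the biological coefficient of variation was 26.5%, and the SE was taken from the log2 fold change and its F statistic. FPKM were multiplied by 0.771 to 0.779 in petiole and 1.28 to 1.30 in leaf. That gap between the tissues is wider than the gap of the TMM factors, and the sources used here do not explain it. The code was tested on simulated data. Alternatives used DESeq2 1.42.0 and limma 3.58.1. Sums of the deposited FPKM were an alternative added after the data had been seen. Figures were drawn with matplotlib 3.10.9.

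The members and lists were chosen with earlier results of these data known. Named are, per family, the 6 largest changes in each direction that passed without overlap and whose mean FPKM reached 2 in the higher tissue, the 4 highest loci per tissue, loci absent from 1 tissue whose mean FPKM reached 1 in the other, and loci of 1 number called in opposite directions. Per pathway list up to 2 loci are named, chosen by change among those that reached a mean FPKM of 5. Other loci are given to account for the families. The search text TPR (28 loci, mostly of other proteins) was not used, GH3 was limited to amido synthetases and 4 napin-like loci were left out of the PIN-like search.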

Additional observations from a re-analysis of the deposited data

How the results depend on the processing

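With DESeq2's size factors, with DESeq2's test and without the filter on low counts, all 28 Aux/IAA and 20 ARF calls kept their direction. With counts divided by the units per fragment, 33 Aux/IAA and 28 ARF loci were tested, and all 25 Aux/IAA and 20 ARF calls still tested were kept. With limma on log2(FPKM + 1) and the shift of all loci removed, 25 of 28 Aux/IAA and 19 of 20 ARF calls were kept. With limma on log2(FPKM + 1), on log2(FPKM + 0.1) and with a mean FPKM of at least 1, in that order, 18479, 18503 and 15791 of all loci were higher in petiole and 5078, 5078 and 3964 in leaf. Aux/IAA loci higher in leaf then numbered 7, 7 and 5. ARF loci numbered 22 higher in petiole in the first and second of these, and 2 higher in leaf in each. With the mean FPKM filter 19 pathway loci were higher in leaf. These fits keep the deposited FPKM scaling. In the same order the log2 fold change turned to 0.15, 0.15 and 0.15 for IAA2 MSTRG.14051, 0.45, 0.45 and 0.45 for IAA16 MSTRG.15245, 0.10, 0.12 and 0.10 for IAA18-like MSTRG.21797, 0.18, 0.20 and 0.18 for IAA9-like MSTRG.24815, 0.0328, 0.0386 and 0.0328 for ARF7 MSTRG.3700, 0.0766, 0.080 and 0.0766 for ARF2 MSTRG.5837, and 0.21, 0.27 and 0.21 for ARF16 MSTRG.594. ARF1 MSTRG.1884, which did not pass on the counts, was at -0.0005 without leaf replicate 3 and at 0.0541 without leaf replicate 2, the ends of its range when 1 library was left out, and passed in these limma fits (0.72, 0.76 and 0.72).

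Leaving out each library in turn gave 9160 to 9612 of all loci higher in petiole and 9138 to 9498 in leaf. It gave 16 to 17 Aux/IAA loci higher in petiole and 11 to 12 in leaf, 12 to 14 and 6 ARF loci, and 62 to 66 and 33 to 39 pathway loci. Deviations of same-numbered libraries from their tissue mean were nearly uncorrelated (r = 0.0139, -0.0102 and 6.883e-05). With 3 libraries per tissue this cannot show whether the numbers pair the samples. With the replicate number as a block, 9338 of all loci were higher in petiole and 9345 in leaf, with 15 and 10 Aux/IAA loci, 13 and 6 ARF loci, and 64 and 34 pathway loci. Of the calls, 25 of 28 for Aux/IAA and 19 of 20 for ARF loci were kept with the block. Among those that missed the threshold was the low IAA27 locus MSTRG.22796 (adjusted p = 0.065). The highest r between such deviations, 0.0246, was that of petiole replicate 2 with leaf replicate 3. Depth limits the loci at or near 0: IAA14, IAA19, IAA27 MSTRG.22796 and IAA34-like rest on a few fragments per library.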
